A study of Homo sapiens with 18 samples.

Results

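The interferon-stimulated and RNA-sensing genes described here were 43 of the 26941 genes counted by RNA-seq in 3 leukemia cell lines. They were named by symbol, as genes of the innate response to double-stranded RNA. The rule itself uses no difference between samples, but the members were chosen with earlier results of these data known. All 43 symbols were found in the count tables. For each gene the RefSeq transcript with the highest total count over the 18 samples was read. The lines were REH, 697 and RCH-ACV, established lines from B-cell precursor acute lymphoblastic leukemia, of which REH represents the ETV6-RUNX1 subtype. In each line 3 samples were nucleofected with *SOX11* siRNA and 3 with a non-specific control siRNA, both at 300 nM, and RNA was taken after 48 h. Samples of 1 group are separate samples of 1 cell line, so the p-values measure the spread within these lines and not between patients. Every sample, the controls included, had received a double-stranded RNA and an electric pulse. No sample without siRNA was analysed here, so a response to the transfection itself that both arms share cannot be seen in the differences between them.

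Cells sense double-stranded RNA in the cytoplasm through the helicases *RIGI* and *IFIH1* (MDA5) and in endosomes through the receptor *TLR3*, and these signal for the production of type I and type III interferon. Interferon acts through its receptors, the JAK kinases and a complex that includes *STAT2* and *IRF9*, which binds the interferon-stimulated response element (ISRE) in the promoters of its target genes. The targets include proteins that bind or degrade RNA, block translation of foreign RNA or hold virus particles at membranes, and many lymphoid and tumour lines keep some of them expressed without added interferon.

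The promoters of members are shown first, because the ISRE is an element that many interferon-stimulated genes are known to share. The rule did not search for its letters. It names genes known to respond to interferon, however, so the matches below are not independent of the choice of genes. RefSeq promoter windows of 300 bases, 250 before and 50 after an annotated start site (GRCh38.p14), were found for 34 of the 43 members, with 44 windows among them, since a gene can have several start sites. The letters searched were GAAANNGAAA, with TTTCNNTTTC as the same element on the other strand, and matches were allowed to overlap. They were found in 28 of the 44 member windows (63.6%) and in 1255 of 35116 windows of all genes (3.57%). By gene, 24 of 34 members held at least 1 match, with the same match counted for *DTX3L* and *PARP9*, whose windows overlap on opposite strands. The shorter gamma-activated sequence TTCNNNGAA, which reads the same on both strands, stood in 25.0% of member windows and in 7.66% of all windows. A match is a description of letters and not a measured binding site, and the study counted RNA only. The windows below are the stretches from 20 bases before the first match to about 20 after the last, shown 5′ to 3′ along the gene and ended near the start site, with the matches in capitals. *IFIT1*, *IFIT3*, *IFIT5*, *IFITM1*, *IFITM3*, *OAS3*, *HERC5* and *MX1* were picked because the differences described further on concern these genes or their families.
*IFIT1*, chr10:89392487-89392549, plus strand: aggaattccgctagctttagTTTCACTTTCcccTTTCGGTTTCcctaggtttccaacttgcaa
*IFIT3*, chr10:89332415-89332507, plus strand: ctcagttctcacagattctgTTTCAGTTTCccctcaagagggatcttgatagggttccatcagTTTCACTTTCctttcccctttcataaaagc
*IFIT5*, chr10:89414503-89414573, plus strand: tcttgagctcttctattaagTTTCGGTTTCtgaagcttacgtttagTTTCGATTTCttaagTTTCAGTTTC
*IFITM1*, chr11:313980-314043, plus strand: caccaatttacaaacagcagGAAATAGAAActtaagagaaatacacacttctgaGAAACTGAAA
*IFITM3*, chr11:320866-320932, minus strand: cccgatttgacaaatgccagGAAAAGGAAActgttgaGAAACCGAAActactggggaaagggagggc
*OAS3*, chr12:112938311-112938473, plus strand: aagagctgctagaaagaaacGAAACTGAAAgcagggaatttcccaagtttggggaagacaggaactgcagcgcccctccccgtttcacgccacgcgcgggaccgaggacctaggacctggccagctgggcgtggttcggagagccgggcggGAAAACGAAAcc
*HERC5*, chr4:88456974-88457074, plus strand: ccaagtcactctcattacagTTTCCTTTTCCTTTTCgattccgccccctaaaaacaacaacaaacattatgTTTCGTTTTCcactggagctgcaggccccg
*MX1*, chr21:41420549-41420578, plus strand: ggaaaccagcgagcagaaatGAAACCGAAA

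*IFIT5* held 3 matches, *HERC5* 3 of which 2 overlap, and the *IFIT1*, *IFIT3*, *IFITM1*, *IFITM3* and *OAS3* windows printed here 2 each. In *MX1* the window shown holds 1 match just after the start site, and a window at another start site of *MX1* held 1 more. *IFIT2*, *IFITM2*, *MX2*, *OAS2*, *OASL*, *DHX58*, *IRF7*, *USP18* and *TLR7* had no entry in the promoter table. *ADAR*, *HERC6*, *IFI35*, *IRF1*, *IRF9*, *OAS1*, *RIGI*, *SAMD9L*, *STAT2* and *XAF1* had an entry and no match, which says only that these letters are not in these windows.

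**Figure D1:**
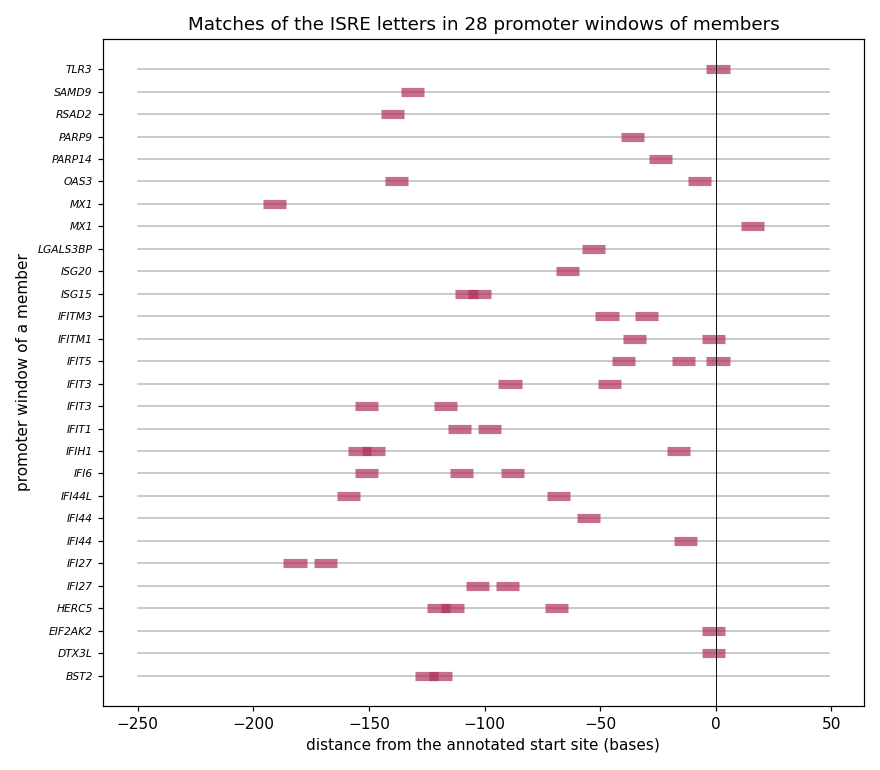
Position of each match of the ISRE letters in the 28 promoter windows of members that hold one. The horizontal axis is the distance from the annotated start site in bases, each grey line is a window, and each bar is a match of 10 letters. Of the 47 matches, 46 begin within the 200 bases before the start site. Overlapping windows can show the same match again, for 1 gene or for the opposite-strand neighbours *DTX3L* and *PARP9*.

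The total count on genes lay between 7039594 and 16592492 per sample, so that 3 counts, taken as the smallest number that shows a gene, corresponded to 0.181 to 0.426 CPM, the count scaled to library size. Such floors cover counting error only. *SOX11* itself was the check of the labels. In REH it was at 98.7, 97.4 and 93.1 CPM with control siRNA and at 47.7, 53.4 and 61.4 CPM with *SOX11* siRNA, in 697 at 59.8, 59.8 and 59.3 against 32.6, 31.7 and 30.9 CPM, and in RCH-ACV at 124, 136 and 133 against 81.6, 78.8 and 86.8 CPM. It was lower in every *SOX11* siRNA sample, with log2 fold changes per line of -0.83, -0.91 and -0.67 (edgeR quasi-likelihood test, adjusted p = 1.41e-08, 0.000233 and 2.51e-06). The 10 markers of B-cell precursors summed to between 4324 and 7812 CPM per sample, with 9 or 10 of them above 1 CPM in each group, and the 5 T-cell markers to at most 0.580 CPM. Of the 5 myeloid markers 1 or 2 were above 1 CPM in a group, and their sum lay between 2.35 and 31.1 CPM. The plasmacytoid dendritic cell list summed to between 142 and 310 CPM, all but traces of it from *TCF4*, a factor that B-lineage cells also express, with *IL3RA* and *GZMB* at 0 in all samples.

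Levels of the members in the control siRNA samples ran from 0 to 222 CPM per kilobase when divided by transcript length. The length was that of the Ensembl canonical transcript in GENCODE, which may differ from the RefSeq transcript that was counted. In REH the highest 3 were *ADAR*, the enzyme that edits adenosine to inosine in double-stranded RNA, at 87.7 ± 2.11 CPM per kilobase (SD, n = 3), *BST2* (tetherin), which holds budding virus at the cell surface, at 53.9 ± 2.26, and *IFITM2*, which hinders virus entry through endosomes, at 45.5 ± 2.98. In 697 they were *IFITM2* at 96.0 ± 6.87, *ADAR* at 85.4 ± 6.96 and *LGALS3BP*, a secreted glycoprotein, at 75.4 ± 6.07 CPM per kilobase, and the SD ranges of neighbours in this order overlapped. In RCH-ACV they were *IFITM2* at 222 ± 14.2, *ADAR* at 94.7 ± 1.04 and *IFITM1*, a relative that acts mostly at the plasma membrane, at 67.0 ± 5.11 CPM per kilobase.

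The lowest members were near or at the floor. *OASL*, a relative of the OAS enzymes without their catalytic activity, had a count in 3 of 18 samples and never more than 1 count, the only member counted in under 9 samples. In control samples it was at 0 in REH and RCH-ACV, and *IFI44L* followed with 0.0638 ± 0.0218 CPM per kilobase in REH and 0.0198 ± 0.0200 in RCH-ACV. The third lowest was *TLR3* in REH, at 0.230 ± 0.0216, and *USP18*, the protease that removes *ISG15* from proteins, in RCH-ACV, at 0.0904 ± 0.108. In 697 the lowest were *TLR7*, the endosomal receptor of single-stranded RNA, at 0 in every sample, *OASL* at 0.0150 ± 0.0259 and *MX1* at 0.0810 ± 0.0293 CPM per kilobase. The 4 members *IFI27*, *IFI44L*, *OASL* and *USP18* were too low to be tested in any comparison, so 39 of the 43 entered the tests between lines.

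**Figure D2:**
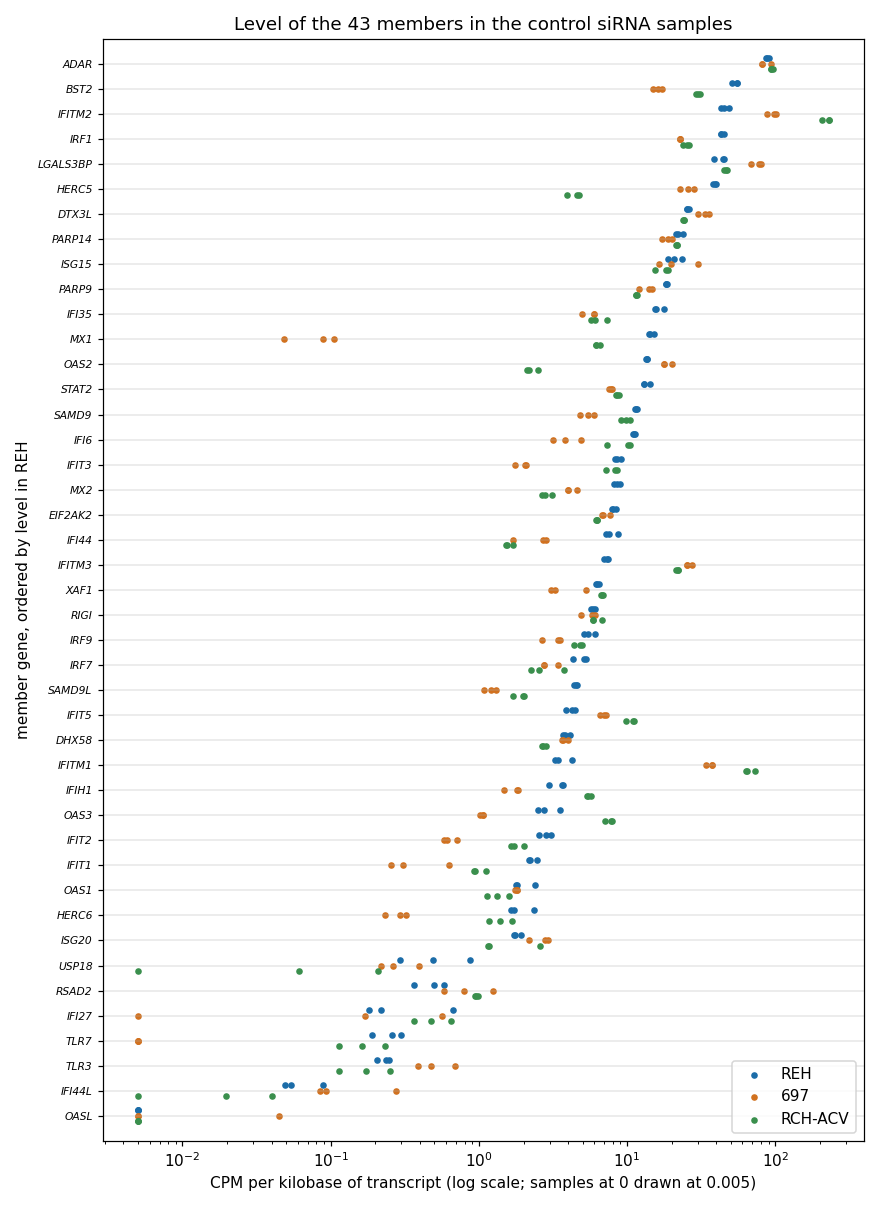
Level of each of the 43 members in the 9 control siRNA samples, in CPM per kilobase of transcript on a log axis, with 1 point per sample, coloured by line. Members are ordered by their mean in REH, and samples at 0 are drawn at 0.005. *MX1* and *TLR7* stand far lower in 697 than in the other 2 lines, and *IFITM1*, *IFITM2* and *IFITM3* are lowest in REH.

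Between the lines the members differed far more than between the siRNAs. Of the 39 members tested, 23 had their highest control mean in REH, 7 in 697 and 9 in RCH-ACV, while 20 had their lowest in 697. For 22 the highest and the lowest line were over 2-fold apart, and the median ratio was 2.68 among members with a level above 0 in every line. A further 8 members were within 1.5-fold across the lines, and 4 of these were *ADAR* (1.11-fold), *RIGI* (1.11-fold), *ISG15* (1.26-fold) and *EIF2AK2*, the kinase PKR that halts translation on double-stranded RNA (1.30-fold). None of these counts over the 3 lines was made for all genes, so they are not shown to be particular to the members. The labels give no batch, so the line and any batch of culture or sequencing cannot be told apart.

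In REH against 697, 14 of 39 members were higher and 4 lower by more than 2-fold at an adjusted p under 0.05, beside 16.7% higher and 14.4% lower among the 14026 genes tested. The median log2 fold change was 0.72 over the members and 0.03 over all genes. By role, 3 of 4 IFIT genes, 4 of 6 GTPases and other antiviral effectors, 3 of 5 tested genes of the remaining induced group, 2 of 10 RNA sensors and RNA-binding effectors and 1 of 3 of the *ISG15* system were higher, and 3 of 4 membrane restriction factors were lower. None of the 4 transcription factors *STAT2*, *IRF1*, *IRF7* and *IRF9* passed 2-fold, although all were higher in REH, by log2 0.72 to 0.94.

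*MX1*, a dynamin-like GTPase that traps viral nucleocapsids, was at 39.7, 42.1 and 38.8 CPM in the REH controls, 18.3, 17.0 and 17.2 in the RCH-ACV controls and 0.246, 0.294 and 0.135 in the 697 controls. The 697 samples were lower than all others by orders of magnitude and held 5 counts of *MX1* in all. The ratio of counts per library was 197 for REH over 697 (exact 95% interval 84.2 to 608) and 82.1 for RCH-ACV over 697 (34.9 to 254), and these intervals cover counting error only. *MX2*, the relative of *MX1* that acts against retroviruses at the nuclear pore, was at 28.9, 28.0 and 30.3 CPM in REH, 13.5, 15.7 and 13.6 CPM in 697 and 10.6, 9.49 and 9.08 in RCH-ACV, so that 697 kept *MX2* while nearly lacking *MX1*. The coding sequences of *MX1* and *MX2* are 70.1% identical, and the authors kept only reads with at most 2 places of alignment.

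*TLR7* was at 0.951, 1.49 and 1.29 CPM in the REH controls and 0.570, 1.17 and 0.815 in the RCH-ACV controls, and had no count in 697 with either siRNA. Against a floor of 3 counts over the 3 control samples of 697 (0.128 CPM), it was at least 10.2-fold higher in REH and at least 6.53-fold higher in RCH-ACV. *TLR3* was at 4.18, 2.35 and 2.84 CPM in 697, above the REH controls at 1.24, 1.49 and 1.42 and above the RCH-ACV controls at 0.684, 1.04 and 1.51. Its log2 fold change was -1.19 ± 0.31 (SE) for REH over 697 (adjusted p = 0.00112) and 1.55 ± 0.34 for 697 over RCH-ACV (adjusted p = 0.000335). Without control replicate 1 of 697 the first of these fell short of 2-fold, at -0.91.

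The IFIT genes lie side by side on chromosome 10 (hg19), *IFIT2* at 91043451 to 91069028, *IFIT3* at 91087064 to 91137230, *IFIT1* at 91152303 to 91166244 and *IFIT5* at 91174325 to 91181362. Their proteins bind RNA whose 5′ end lacks the marks of the cell's own mRNA. *IFIT1* was at 9.32, 9.46 and 10.6 CPM in the REH controls, 1.11, 1.32 and 2.70 in 697 and 3.99, 4.03 and 4.78 in RCH-ACV, and the 3 lines did not overlap. It was 5.67-fold higher in REH than in 697 (SE 0.22 on the log2 scale, adjusted p = 1.27e-10), and the log2 fold changes of *IFIT2* and *IFIT3* were 2.16 and 2.14. *IFIT5* had another order, with 17.9, 15.6 and 17.1 CPM in REH, 28.3, 26.6 and 28.9 CPM in 697 and 39.8, 45.0 and 43.9 in RCH-ACV, and was lower in REH than in RCH-ACV (log2 fold change -1.35 ± 0.09, adjusted p = 7.96e-13). *IFIT3* was lower in 697 than in RCH-ACV, with a log2 fold change of -2.04 ± 0.15 (adjusted p = 4.52e-12).

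The IFITM genes were lowest in REH. *IFITM1* was at 2.19, 2.27 and 2.85 CPM in the REH controls, 24.9, 22.8 and 24.9 in 697 and 48.6, 43.1 and 42.4 in RCH-ACV. *IFITM2* was at 45.3, 43 and 48.9 CPM in REH, 98.4, 88.9 and 102 CPM in 697 and 231, 231 and 206 in RCH-ACV. In both genes the 3 lines were fully apart, with log2 fold changes of REH over RCH-ACV of -4.22 ± 0.13 for *IFITM1* and -2.29 ± 0.06 for *IFITM2* (adjusted p = 3.07e-20 and 1.90e-21). *IFITM3*, which acts in endosomes, was at 4.28, 4.46 and 4.53 CPM in REH, 16.8, 15.4 and 15.5 CPM in 697 and 13.1, 13.4 and 13.4 in RCH-ACV, and its log2 fold changes of REH were -1.85 ± 0.12 over 697 and -1.59 ± 0.12 over RCH-ACV. The coding sequences of *IFITM2* and *IFITM3* are 93.9% identical and those of *IFITM1* and *IFITM3* 87.5%, so a read in a shared stretch has more than 1 place of alignment and the split of reads between these genes is uncertain. *BST2*, the other membrane restriction factor, did not follow them, since it was higher in REH than in 697 (log2 1.75, adjusted p = 7.68e-16).

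In REH against RCH-ACV 8 members were higher and 6 lower, beside 11.6% and 14.8% of all genes, and in 697 against RCH-ACV 3 were higher and 10 lower, beside 7.39% and 13.6%. *HERC5* and *OAS2* had the largest differences among the members higher than in RCH-ACV, in REH as in 697. *HERC5*, the ligase that attaches *ISG15* to new proteins, was at 137, 134 and 140 CPM in the REH controls, 98.9, 89.8 and 80.0 in 697 and 13.9, 16.5 and 16.1 in RCH-ACV, a log2 fold change of 3.14 ± 0.08 for REH and 2.54 ± 0.09 for 697 over RCH-ACV (adjusted p = 7.78e-22 and 8.26e-19). Its neighbour *HERC6* on chromosome 4 was at 6.56, 6.25 and 8.93 CPM in REH and 6.27, 4.42 and 5.24 in RCH-ACV, with 697 lowest at 1.11, 0.881 and 1.22, and was 2.70 ± 0.24 higher on the log2 scale in REH than in 697 (adjusted p = 2.15e-10).

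The OAS enzymes make 2′-5′-linked oligoadenylates when they bind double-stranded RNA. *OAS1*, *OAS2* and *OAS3* lie next to each other on chromosome 12 (hg19), with *OAS1* at 113343661 to 113371024, *OAS3* at 113375856 to 113414265 and *OAS2* at 113416200 to 113449528. *OAS2* was at 63.2, 62.6 and 61.8 CPM in the REH controls, 93.1, 82.3 and 82.6 in 697 and only 10.0, 11.6 and 9.78 in RCH-ACV. *OAS3* had the opposite order between these lines, with 51.8, 47.0 and 51.5 CPM in RCH-ACV, 18.1, 23.1 and 16.4 in REH and 7.0, 6.76 and 7.03 in 697. For 697 over RCH-ACV the log2 fold change was 3.05 ± 0.08 for *OAS2* and -2.85 ± 0.12 for *OAS3* (adjusted p = 4.30e-21 and 8.69e-17). *OAS1* was low in all lines, between 1.86 and 3.88 CPM in the 9 control samples.

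*IFI44* and *IFI35* were highest in REH. *IFI44*, a protein of infected and interferon-treated cells, was at 12.7, 12.0 and 14.5 CPM in REH, 4.79, 4.55 and 2.84 CPM in 697 and 2.85, 2.60 and 2.56 in RCH-ACV, a log2 fold change of 2.27 ± 0.16 for REH over RCH-ACV (adjusted p = 3.03e-12). *IFI35* was at 18.4, 18.3 and 20.8 CPM in REH, 5.90, 7.05 and 7.03 CPM in 697 and 6.72, 7.15 and 8.62 in RCH-ACV, a log2 fold change of 1.34 ± 0.14 for REH over RCH-ACV (adjusted p = 2.48e-09). The order of the lines thus differed from gene to gene, and members that lie side by side, such as *OAS2* and *OAS3* or *IFIT1* and *IFIT5*, had different orders.

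The comparison of *SOX11* siRNA with control siRNA asked whether the group's genes moved with the knockdown. In REH none of 39 tested members passed an adjusted p under 0.05, beside 2.64% of 12787 genes that were higher and 2.02% that were lower. In 697 none of 36 passed, beside 0.0822% higher and 0.477% lower of 12169 genes. These counts of 0 members were the same with edgeR's quasi-likelihood test and with the Wald test of DESeq2, and at an unadjusted p under 0.05 edgeR gave 9 members in REH and 7 in 697. In RCH-ACV 2 of 37 members were higher and 2 lower, beside 3.68% and 3.97% of 12963 genes, and 8 had an unadjusted p under 0.05. The share of all genes at an unadjusted p under 0.05 was not taken, for these counts or those further on. Of the B-cell precursor markers 4, 3 and 3 were called in REH, 697 and RCH-ACV. Their summed level was 7053 to 7242 CPM in the REH controls and 7690 to 7812 with *SOX11* siRNA, 5069 to 5431 against 4370 to 4622 in 697 and 5301 to 5530 against 4324 to 5407 in RCH-ACV. The sum of the myeloid markers was 14.8 to 16.9 CPM against 9.36 to 10.9 in REH, with *MPO* lower (log2 fold change -0.78, adjusted p = 0.000237). *TCF4*, the single tested gene of the plasmacytoid dendritic cell list, was lower in 697 (log2 fold change -0.47, adjusted p = 0.00409), where the list summed to 195 to 223 CPM in the controls against 142 to 153. It was also lower in RCH-ACV, by -0.37 on the log2 scale (adjusted p = 0.0243), with a sum of 295 to 310 CPM against 204 to 294, and by the common effect, by -0.30 (adjusted p = 0.000522). DESeq2 called *TCF4* in 697 and not in RCH-ACV. The part of these shifts in the members' values was not tested.

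Most differences were small. The median log2 fold change of the tested members was -0.02 in REH, -0.05 in 697 and -0.05 in RCH-ACV, against -0.0023, -0.0035 and 0.0051 over all genes, and 16 of 39, 14 of 36 and 14 of 37 members lay above 0. In size the median was 0.09 in REH, 0.13 in 697 and 0.14 in RCH-ACV, close to the median SE of a member, which was 0.10, 0.13 and 0.11. No member in REH lay further than 0.39 from 0, and 31 of the 39 lay within 0.2. In 697 the furthest lay 0.84 from 0, with 22 of 36 within 0.2 and 3 beyond 0.5. In RCH-ACV the furthest lay 0.68 from 0, with 25 of 37 within 0.2 and 4 beyond 0.5. The abundant members were measured best. *ADAR*, at over 500 CPM, had log2 fold changes of 0.03 ± 0.03 (SE) for REH, 0.00 ± 0.06 for 697 and 0.00 ± 0.04 for RCH-ACV, and the sensor *RIGI* had -0.02 ± 0.08, -0.06 ± 0.11 and -0.15 ± 0.10. *ISG15*, often used as a readout of an interferon response, had 0.15 ± 0.11, 0.20 ± 0.19 and -0.05 ± 0.16, and *MX1* had 0.09 ± 0.07 in REH and 0.11 ± 0.09 in RCH-ACV. *ADAR*, *RIGI*, *ISG15* and *MX1* were picked as sensors and readouts, after their values were seen. The sensor *IFIH1* was at 0.91 of its control mean in RCH-ACV, without overlap of samples and not called. In REH and 697 it was at 1.04 and 1.12, with overlap. *TLR3* was at 0.47 of its control mean in RCH-ACV, without overlap, but was too low to be tested there. In REH and 697 it was at 0.81 and 0.83, with overlap, and it held 3 to 34 counts per sample.

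**Figure D3:**
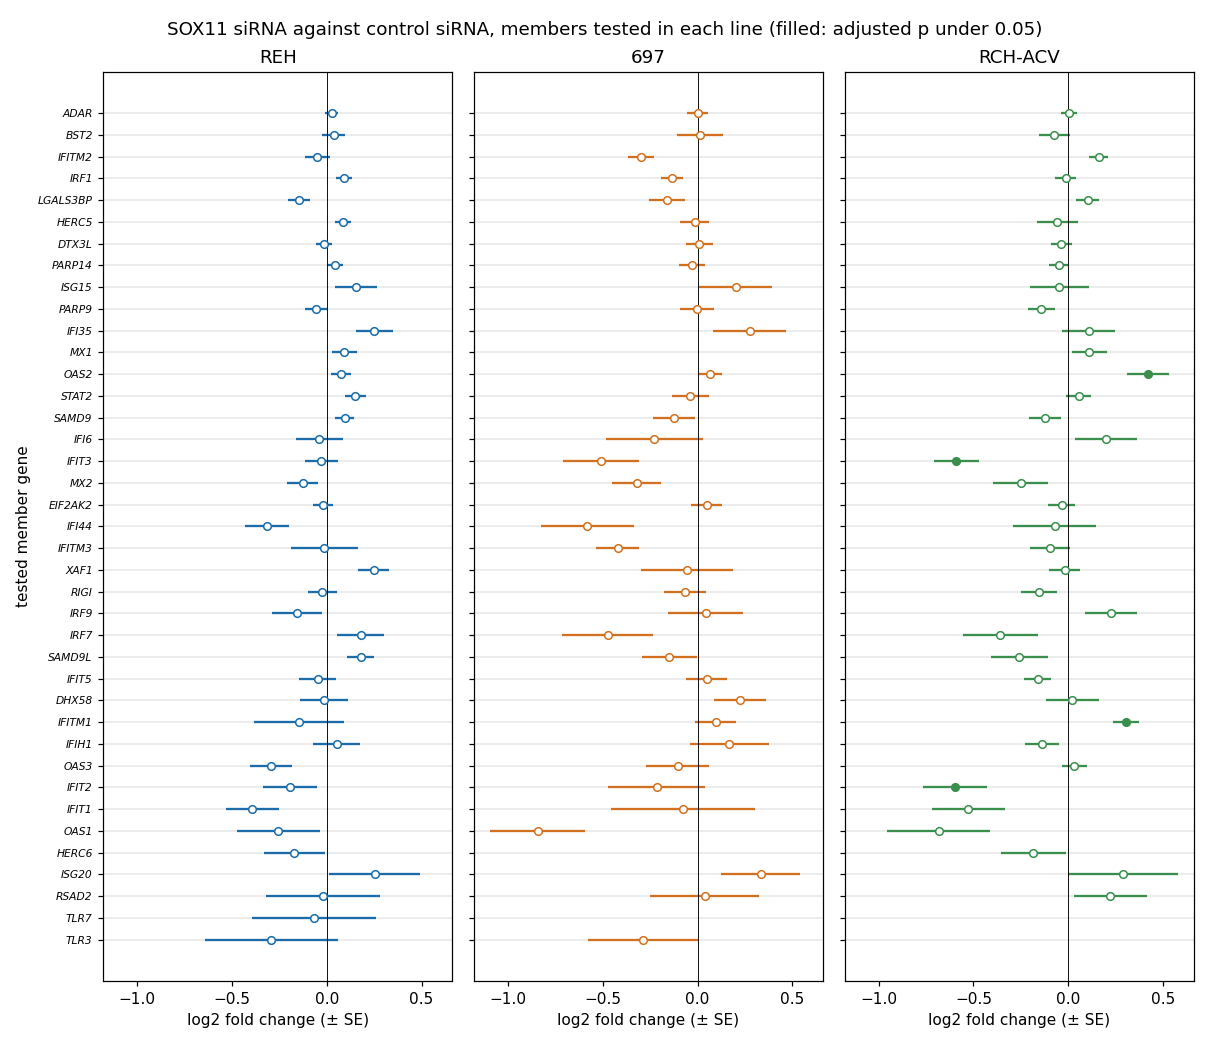
Log2 fold change of *SOX11* siRNA over control siRNA for each tested member in REH, 697 and RCH-ACV, with 1 SE on either side (edgeR, 3 samples against 3). Filled points have an adjusted p under 0.05, which in these fits were *IFIT2*, *IFIT3*, *IFITM1* and *OAS2* in RCH-ACV. Most points lie within 0.2 of 0.

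*IFIT3*, which stabilises *IFIT1* on its RNA, was at 17.2, 20.4 and 19.9 CPM in the RCH-ACV controls and at 10.2, 13 and 14.3 CPM with *SOX11* siRNA. In 697 it was at 4.18, 4.99 and 4.87 against 2.80, 3.48 and 3.48 CPM, and in REH at 21.8, 19.8 and 20.3 against 21.5, 18.7 and 19.8 CPM. The siRNA samples were all below the controls in RCH-ACV and 697 and overlapped them in REH. The log2 fold change was -0.59 ± 0.12 (SE) in RCH-ACV (adjusted p = 0.00528), -0.51 ± 0.20 in 697 (adjusted p = 0.502) and -0.03 ± 0.09 in REH (adjusted p = 0.921). Tested for an unequal effect in the 3 lines, it had an adjusted p of 0.137. *IFIT3* passed in RCH-ACV with each of the 6 samples left out in turn, with adjusted p between 0.000147 and 0.0445. Its exons overlap 94 bases of the opposite-strand gene *LIPA*, and whether reads were counted by strand is not given in the sources used here.

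*IFIT2*, the next gene upstream, was at 6.84, 5.85 and 5.59 CPM in the RCH-ACV controls and 3.92, 3.83 and 4.48 CPM with *SOX11* siRNA, with no overlap. In REH it was at 10.4, 9.62 and 8.67 against 6.72, 10.1 and 8.71 CPM and in 697 at 1.97, 2.06 and 2.43 against 1.78, 1.74 and 2.02 CPM, and the groups overlapped. The log2 fold change was -0.60 ± 0.17 in RCH-ACV (adjusted p = 0.0374), -0.20 ± 0.14 in REH (adjusted p = 0.541) and -0.21 ± 0.26 in 697 (adjusted p = 0.926). The call in RCH-ACV was lost when any 1 of the 6 samples but *SOX11* siRNA replicate 3 was left out, with log2 fold changes of -0.66 to -0.50 and adjusted p of at most 0.193, and without that replicate the adjusted p was 0.0123. With DESeq2 it was 0.195. *IFIT1* was at 3.99, 4.03 and 4.78 CPM against 3.16, 3.11 and 2.51 in RCH-ACV, a log2 fold change of -0.53 ± 0.19 that did not pass (adjusted p = 0.111), and *IFIT5* had -0.16 ± 0.07 (adjusted p = 0.191). All 4 IFIT genes thus had values below 0 in RCH-ACV, of which 2 passed, and all 4 had an unadjusted p under 0.05. The direction was not particular to RCH-ACV. In REH all 4 also lay below 0, from -0.39 to -0.03, with 1 at an unadjusted p under 0.05 and none called. *IFIT1* had the largest of these, and its *SOX11* siRNA samples in REH all lay below the controls. In 697 1 of the 4 lay above 0, and none was called. No share of all genes was taken to stand beside these unadjusted counts.

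*IFITM1* was at 48.6, 43.1 and 42.4 CPM in the RCH-ACV controls and 58.7, 54.0 and 53.9 CPM with *SOX11* siRNA, with no overlap, a log2 fold change of 0.30 ± 0.07 (adjusted p = 0.0133). In 697 it was at 24.9, 22.8 and 24.9 against 29.4, 25.4 and 23.2 CPM and in REH at 2.19, 2.27 and 2.85 against 2.02, 2.11 and 2.30 CPM, which overlapped, with log2 fold changes of 0.10 ± 0.11 and -0.15 ± 0.24 (adjusted p = 0.921 and 0.823). The call in RCH-ACV was lost without *SOX11* siRNA replicate 1, control replicate 2 or control replicate 3, with log2 fold changes of 0.27 to 0.28 and adjusted p of at most 0.0785. *IFITM1* and *IFITM2* share exon bases with a same-strand read-through gene of the annotation, over 351 and 31 bases.

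*OAS2* was at 10.0, 11.6 and 9.78 CPM in the RCH-ACV controls and 14.4, 13.9 and 13.6 CPM with *SOX11* siRNA. In REH it was at 63.2, 62.6 and 61.8 against 67.2, 64.0 and 65.7 CPM, and in 697 at 93.1, 82.3 and 82.6 against 88.8, 88.4 and 93.7 CPM. The siRNA samples lay above all controls in RCH-ACV and REH and overlapped them in 697. The log2 fold change was 0.42 ± 0.11 in RCH-ACV (adjusted p = 0.0301), 0.08 ± 0.05 in REH (adjusted p = 0.517) and 0.07 ± 0.06 in 697 (adjusted p = 0.893). The call in RCH-ACV held only without *SOX11* siRNA replicate 3 or control replicate 2, and was lost without any 1 of the other 4 samples, with log2 fold changes of 0.37 to 0.42 and adjusted p of at most 0.130. With DESeq2 the adjusted p was 0.136.

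**Figure D4:**
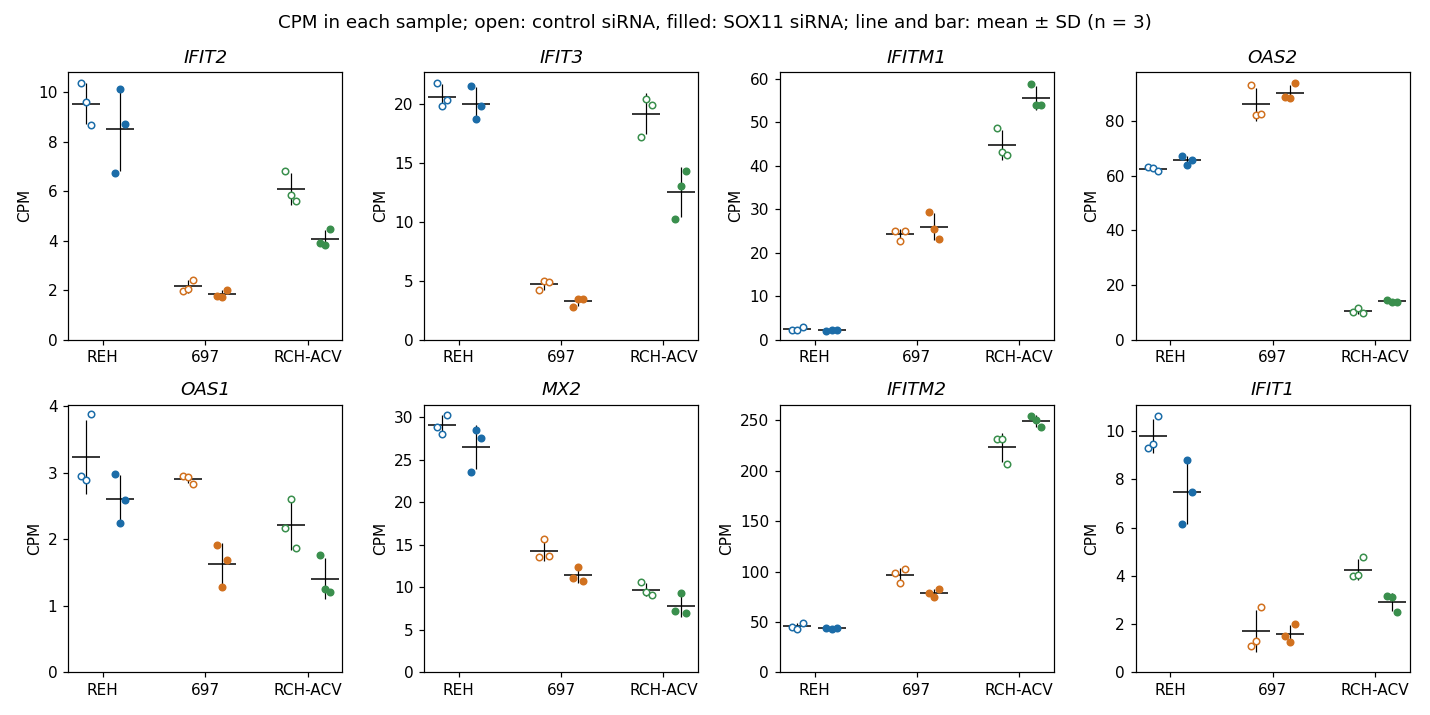
CPM of 8 members in each of the 18 samples, with open points for control siRNA and filled points for *SOX11* siRNA, coloured by line, and the mean ± SD of 3 samples in black. The distances between the lines exceed those between the siRNAs in most panels. In RCH-ACV the filled points of *IFIT1*, *IFIT2*, *IFIT3* and *OAS1* lie below the open ones and those of *IFITM1*, *IFITM2* and *OAS2* above them.

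Over the 3 lines together, 1 of 39 members was higher and 3 were lower by the common effect of the siRNA, beside 2.51% and 3.79% of the 14026 genes tested. *IFIT3* had a common log2 fold change of -0.38 ± 0.09 (SE, adjusted p = 0.00672) and *OAS2* one of 0.19 ± 0.04 (adjusted p = 0.00914), and both passed with each of the 18 samples left out in turn. *OAS1* and *MX2* were called here and in no single line. *OAS1* was at 2.95, 2.94 and 2.84 CPM in the 697 controls and at 1.91, 1.28 and 1.68 CPM with *SOX11* siRNA, at 2.16, 2.60 and 1.86 against 1.77, 1.26 and 1.20 in RCH-ACV and at 2.95, 2.89 and 3.88 against 2.98, 2.24 and 2.58 in REH. The groups were apart in 697 and RCH-ACV and overlapped in REH. Its common log2 fold change was -0.60 ± 0.14 (adjusted p = 0.00678), with -0.84 ± 0.25 in 697, -0.68 ± 0.27 in RCH-ACV and -0.26 ± 0.22 in REH. It passed with each sample left out, and rests on few reads, since each group of 3 samples held 41 to 98 counts of *OAS1*. *OAS1* and *OAS2*, which lie in 1 cluster, therefore differed in direction.

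*MX2* was at 13.5, 15.7 and 13.6 CPM against 11.1, 12.4 and 10.8 in 697, at 28.9, 28.0 and 30.3 against 23.5, 28.5 and 27.6 in REH and at 10.6, 9.49 and 9.08 against 7.20, 9.39 and 6.99 in RCH-ACV. Only in 697 were the groups apart. The common log2 fold change was -0.23 ± 0.07 with an adjusted p of 0.0442, which was lost without any 1 of 12 of the 18 samples, with values of -0.25 to -0.21 and adjusted p of at most 0.118. Those 12 were *SOX11* siRNA replicate 1 and all 3 controls of REH, *SOX11* siRNA replicates 1 and 3 and control replicate 2 of 697, and *SOX11* siRNA replicates 1 and 3 and all 3 controls of RCH-ACV.

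A difference in the siRNA effect between the lines was found for 1 of 39 members, *IFITM2*, beside 0.727% of all genes. *IFITM2* was at 98.4, 88.9 and 102 CPM in the 697 controls and 79.0, 74.8 and 82.4 CPM with *SOX11* siRNA, lower without overlap. In RCH-ACV it was at 231, 231 and 206 against 254, 250 and 243 CPM, higher without overlap, and in REH at 45.3, 43 and 48.9 against 44, 43.3 and 43.6 CPM, with overlap. In the fits of single lines the log2 fold changes were -0.30 ± 0.07 (SE) in 697, 0.16 ± 0.05 in RCH-ACV and -0.05 ± 0.06 in REH. None passed there (adjusted p = 0.123, 0.0547 and 0.770). The test of the difference, in the fit of all 18 samples, gave an adjusted p of 0.0111. In that fit *IFITM2* was called lower in 697, at -0.30 ± 0.06 (adjusted p = 0.0121), and not called in RCH-ACV or REH. With the counts of *IFITM2* and its near copy *IFITM3* added together the adjusted p of the difference was 0.00651. The sum was lower in 697, by -0.31 ± 0.06 on the log2 scale (adjusted p = 0.00350), in the fit of 18 samples. *IFITM3* itself was at 16.8, 15.4 and 15.5 against 11.2, 12.5 and 12.0 CPM in 697, a log2 fold change of -0.42 ± 0.11. It did not pass in the fit of 697 alone (adjusted p = 0.214) and passed in that of 18 samples (adjusted p = 0.0332).

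The genes around the members give the rest of the pathway. Calls in each list below stand beside 2.64% of all genes higher and 2.02% lower in REH. The same shares were 0.0822% and 0.477% in 697, and 3.68% and 3.97% in RCH-ACV. The 21 interferon genes were too low for any test. They held no count in the 6 REH samples, 86 counts over all 18 samples and at most 11 of 1 gene in a single sample, and 14 of the 21 were at 0 throughout. Their summed level reached at most 2.29 CPM. Of the 9 receptor and JAK kinase genes, all tested in each line, 2 were higher in REH and none in 697 or RCH-ACV (edgeR and DESeq2, with an unadjusted edgeR p under 0.05 in 1 gene each). *IFNLR1*, the chain particular to type III interferon, was at 2.47, 2.42 and 2.20 CPM in the REH controls and 4.99, 4.22 and 3.64 CPM with *SOX11* siRNA, a log2 fold change of 0.85 ± 0.21 (adjusted p = 0.0166), and *JAK1* rose by 0.21 ± 0.04 (adjusted p = 0.00341). DESeq2 called *JAK1* and not *IFNLR1*. In 697 *IFNLR1* stood at 42.8, 43.3 and 48.0 CPM in the controls, far above the other lines. By the common effect *IFNLR1* and *JAK2* were higher, by 0.60 ± 0.12 and 0.21 ± 0.06 (adjusted p = 0.00222 and 0.0267). These were 2 of 9, beside 2.51% of all genes.

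Of 25 tested adaptors, kinases and further sensors in REH, *IFI16* and *ZC3HAV1* were higher and *DDX60* lower. *DDX60*, a helicase known as a cofactor of *RIGI*, was at 11.4, 13.8 and 12.4 CPM in the REH controls and 5.38, 8.56 and 6.89 CPM with *SOX11* siRNA, without overlap, a log2 fold change of -0.89 ± 0.14 (adjusted p = 0.000331), larger than that of any member in REH. In RCH-ACV 1 of 25 was higher, *TLR9*, and 2 were lower, the adaptor *MYD88* by -0.26 ± 0.05 and the DNA sensor *IFI16* by -0.21 ± 0.04 on the log2 scale (adjusted p = 0.00356 and 0.00428). *TLR9*, the endosomal receptor of unmethylated DNA, was at 1.14, 1.56 and 1.51 CPM against 4.55, 4.01 and 1.75 CPM. In 697 none of 23 was called by edgeR or DESeq2, with 2 at an unadjusted p under 0.05 by edgeR.

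Among inhibitors of interferon signalling, the phosphatase *PTPN6* was higher in REH, by 0.30 ± 0.08 (1 of 11 tested, adjusted p = 0.0336), and in RCH-ACV, by 0.46 ± 0.06, where *RNF125* was also higher and the ubiquitin-editing enzyme *TNFAIP3* lower, by -0.53 ± 0.08 (3 of 12, adjusted p = 0.000317 for *PTPN6* and 0.000525 for *TNFAIP3*). DESeq2 called *PTPN6* and *TNFAIP3* in RCH-ACV and none in REH, and in 697 neither tool called any of 11, with 2 at an unadjusted p under 0.05 by edgeR. Of a further list of interferon-stimulated genes outside the members, none of 37 was called in REH or in 697 by edgeR or DESeq2, with 3 each at an unadjusted p under 0.05 by edgeR, and in RCH-ACV 2 of 38 were higher (*LY6E* and *PARP10*) and 2 lower (*TRIM22* and *LAMP3*). These counts stand beside the same 3.68% and 3.97% of all genes.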

How the data were processed

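After trimming, the authors aligned reads to hg19 (STAR), discarded reads with more than 2 places of alignment, and counted reads per RefSeq transcript with HOMER. They deposited raw counts, unnormalised, in 1 table per cell line (50678 transcripts each). The strand setting of the counting is not given in the sources used here. Symbols were matched for 98.0% of transcripts, and 1 transcript per gene was kept. The tables held 0 columns of other samples.

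Each line was fitted with edgeR 4.0.16 in R 4.3.3 (TMM, filterByExpr, quasi-likelihood F-test, two-sided, Benjamini-Hochberg over all tested genes). Lines, the common effect and the interaction came from 1 fit of 18 samples with 6 group means. CPM used TMM over the 18 samples. Members and gene lists were chosen with earlier results of these data known. Members called, those with the 3 highest and 3 lowest levels per line and the 5 largest folds per line comparison are named. Each fit was first run on simulated counts in which 200 of the better counted genes differed by 2-fold. The siRNA differences of the members were smaller, so that run does not show how well such differences are found. Alternatives were RLE and library-size scaling, DESeq2 1.42.0, edgeR's legacy method, other filters and thresholds, the replicate block, another transcript choice and leaving out each of the 18 samples. Motifs were searched in RefSeq promoters and coding identity computed with Biopython 1.88, and plots used matplotlib 3.10.9.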

Additional observations from a re-analysis of the deposited data

Results flagged for a closer look

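The effect of *SOX11* siRNA on *IFITM2* differed between the lines, by the test of the difference itself (edgeR quasi-likelihood F-test, adjusted p = 0.0111 over all genes tested). It was lower in 3 of 3 siRNA samples than in every control in 697 and higher in 3 of 3 in RCH-ACV, with log2 fold changes of -0.30 ± 0.07 and 0.16 ± 0.05 (SE). The adjusted p lay between 0.00235 and 0.0469 over all alternatives run, and the likelihood ratio test of DESeq2 also called it.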

How the results depend on the processing

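No alternative turned the direction of a called member. In RCH-ACV the 4 calls became 1 at an adjusted p under 0.01 (*IFIT3*), 2 with DESeq2 and 2 under a replicate block, and ranged from 1 to 8 when 1 sample was left out. The 1 came without *SOX11* siRNA replicate 1 or control replicate 3. The 8 came without *SOX11* siRNA replicate 3, which added *IFITM2*, *LGALS3BP*, *SAMD9* and *SAMD9L*, while the calls over all genes went from 991 to 2518. In 697 the count of 0 became 2 in 1 fit of 18 samples (*IFITM2* and *IFITM3*, both lower) and stayed 0 with any sample left out. In REH it ranged from 0 to 1, with *IFI35* called without *SOX11* siRNA replicate 3 and *LGALS3BP* without control replicate 1. The common effect gave 3 to 5 calls and the interaction 1 to 2 with a sample left out, and 0 interactions passed an adjusted p under 0.01, where edgeR gave 8 members at an unadjusted p under 0.05. Without the threshold on the fold, 33, 26 and 31 of 39 members differed between the lines (REH against 697, REH against RCH-ACV, 697 against RCH-ACV). Beside them, 10620, 10346 and 8922 of the 14026 genes tested were called in the same way. With the threshold, leaving out a sample gave 17 to 19, 13 to 14 and 13 to 14 members. Scaling by library size alone moved the median of all genes from 0.03 to 0.15 on the log2 scale in REH against 697. There 16 members were then higher and 3 lower, beside 4411 of all genes called in either direction. In the line comparisons, 1206 of 1215 values of single members under alternatives kept their call, and the 9 that did not were of *IFITM2*, *MX2*, *RSAD2*, *SAMD9* and *TLR3*. DESeq2 gave *OAS1* no adjusted p for the common effect. Same-numbered samples had correlations between -0.247 and 0.265, which with 3 samples per group cannot exclude a pairing. The labels tie them to no shared day. In edgeR's quasi-likelihood test the block lost *IFIT2* and *OAS2* in RCH-ACV (adjusted p = 0.0790 and 0.0678). It also lost *MX2* by the common effect (adjusted p = 0.0549). The block changed no other count of members called by over 1.5 times. The calls over all genes went from 68 to 29 in 697 and from 102 to 45 for the interaction.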
